A study of Mus musculus with 6 samples.

Results

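The genes described here encode the machinery in which p130Cas works: its 3 relatives of the Cas family, the kinases and phosphatases that act on Cas proteins, the Crk-Dock1-Rac branch, the scaffolds of focal adhesions, and the integrins. They were chosen by symbol from a list of 56, and all 56 were found by gene ID among the 55631 genes of the table. RNA was taken at E14.5 from mouse palatal shelves, a pair of outgrowths of the upper jaw that fuse into the palate. The 3 KO libraries came from embryos with the genotype p130Cas fl/fl with a CAG-Cre transgene. The 3 control libraries came from embryos that carried the same loxP-flanked alleles (p130Cas fl/fl) with no Cre in the label, and their titles call them WT. CAG is a promoter active in nearly all cell types, so the design is not limited to the mesenchyme. The labels do not say whether embryos came from separate litters or whether shelves were pooled, so p-values measure the spread between these samples, which may be technical in part.

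Integrins are receptors made of an alpha and a beta chain that bind the extracellular matrix outside the cell and, through talin and kindlin, actin inside it. At such contacts focal adhesion kinase (FAK) and Src phosphorylate tyrosines of Cas proteins, the adaptors Crk and Crkl dock there, and they bring Dock1 with Elmo, which activate the GTPase Rac and with it the movement of the cell edge. In the palate the shelves are mostly mesenchyme of neural crest origin under a layer of epithelium, and in mice integrins are known there above all for the activation of TGF-beta by the alpha v chain with beta 6 or beta 8.

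Values are FPKM, fragments scaled to gene length and library size, as deposited, so levels of different genes can be set side by side per length. FPKM summed to between 384979 and 424993 per library, and between 21500 and 21869 genes were above 0. Read numbers are not known. Within a group, values per library are listed in the order of replicates 1, 2 and 3. Markers of palatal mesenchyme were present: Osr2 stood at 48.7, 49.8 and 55.2 FPKM in KO shelves and at 51.4, 53.3 and 44.6 FPKM in control shelves. The shelves also held other tissues in amounts that differed between libraries. Cartilage markers (12 genes) summed to 771, 163 and 141 FPKM in KO shelves, against 350, 306 and 655 FPKM in control shelves. In bulk tissue, fewer cells of a type and less RNA per cell cannot be told apart.

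The adhesion machinery was expressed broadly and, for most genes, at substantial levels. Of the 56 genes, 55 were above 0 in all 6 libraries, 37 averaged at least 10 FPKM and 25 at least 20 FPKM. Testing was limited to the 53 that averaged 1 FPKM or more, whose median level was 19.2 FPKM, beside 9.25 FPKM over all 14714 tested genes. The 3 genes under that filter were Lims2, Itgb6 and Cass4. Just above it lay Itgb8, at a mean of 1.19 FPKM, and just below it Lims2, at 0.804 FPKM. Levels varied little between libraries, with a median coefficient of variation of 8.09% over the 53 genes and 9.53% over all tested genes.

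**Figure D1:**
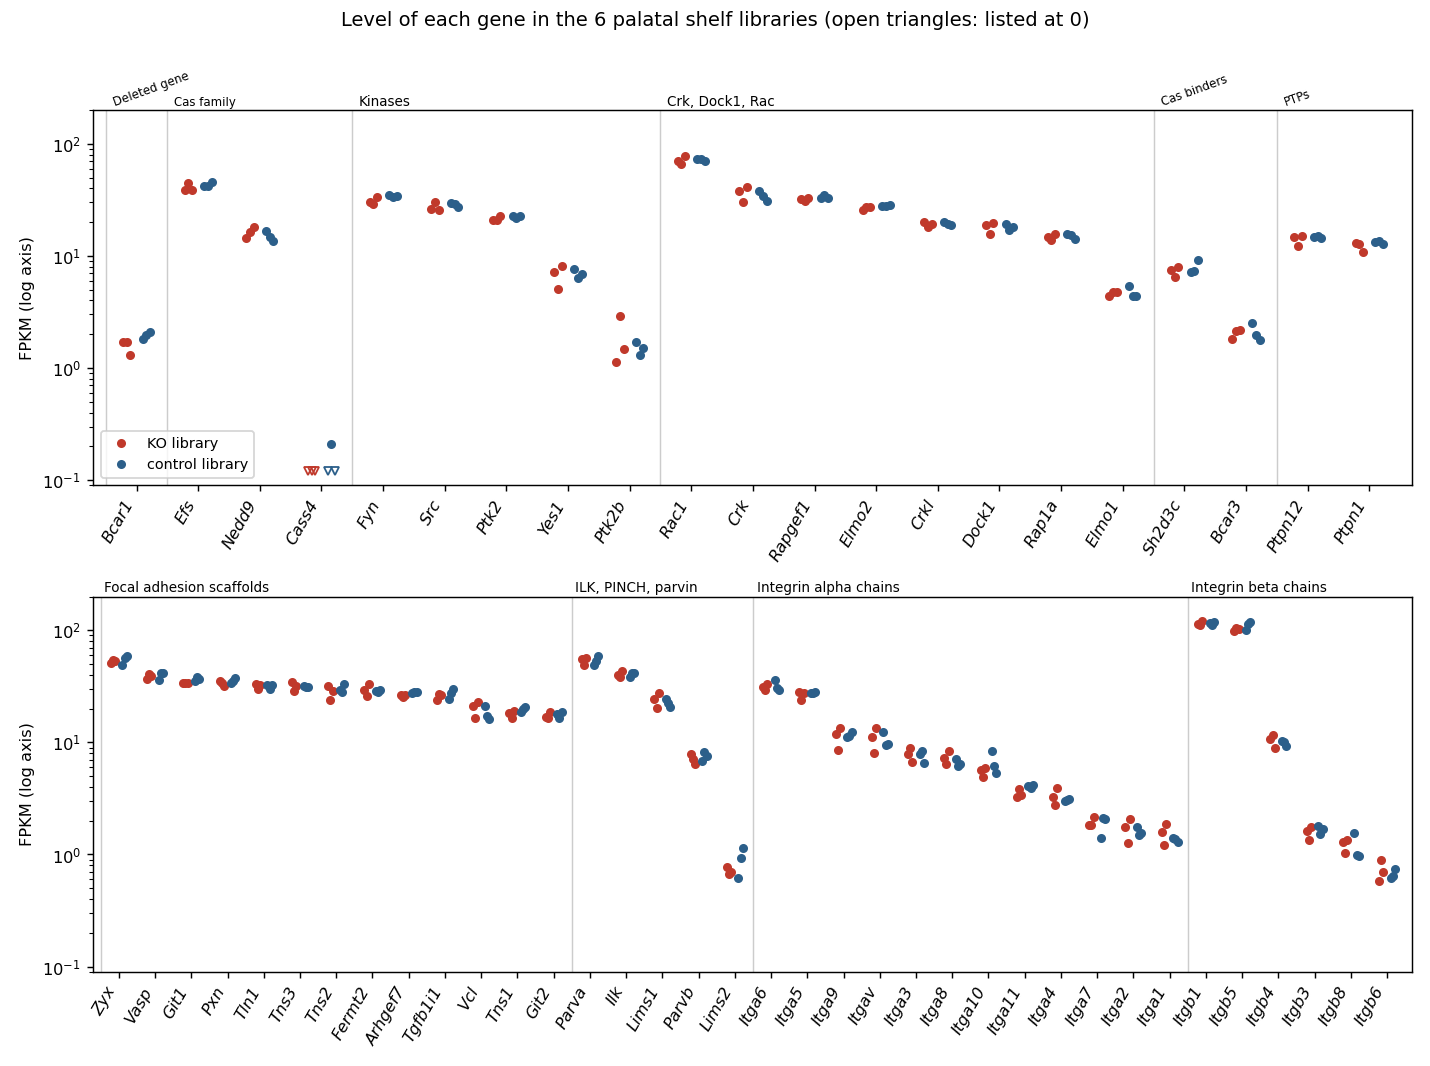
FPKM of Bcar1 and the 56 genes (log axis) in the 3 KO libraries (red) and the 3 control libraries (blue), grouped by role and ordered by mean level within a role. Itgb1 and Itgb5 lie above 99 FPKM in all 6 libraries, while Cass4 is listed at 0 in all but control replicate 2 (open triangles mark a value of 0).

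No gene of the set passed the test between KO and control shelves. In limma on log2(FPKM + 1), 0 of the 53 tested genes were called higher and 0 lower at an adjusted p under 0.05, where 0.326% of all tested genes were called higher and 0.0068% lower, 0.333% in all. At an unadjusted p under 0.05 there were 0 of 53 as well, beside 4.01% of all tested genes (2.09% higher and 1.92% lower). Their lowest unadjusted p was 0.0657 (limma, Fyn), and the adjusted p was 1.00 for all 53. The median log2 fold change of the 53 was -0.03, beside -0.02 over all tested genes, and 75.5% of them lay within 0.1 of 0 on that scale, beside 69.3% of all tested genes. The 95% interval of the log2 fold change, not adjusted for the number of genes, held 0 for all 53. For 52 of them it lay wholly within 0.58 of 0, a 1.49-fold difference in FPKM + 1 either way. The exception was Ptk2b, whose interval ran from -0.37 to 0.64. The added 1 understates fold changes of low genes, so for them the same interval allows a larger fold change in FPKM.

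**Figure D2:**
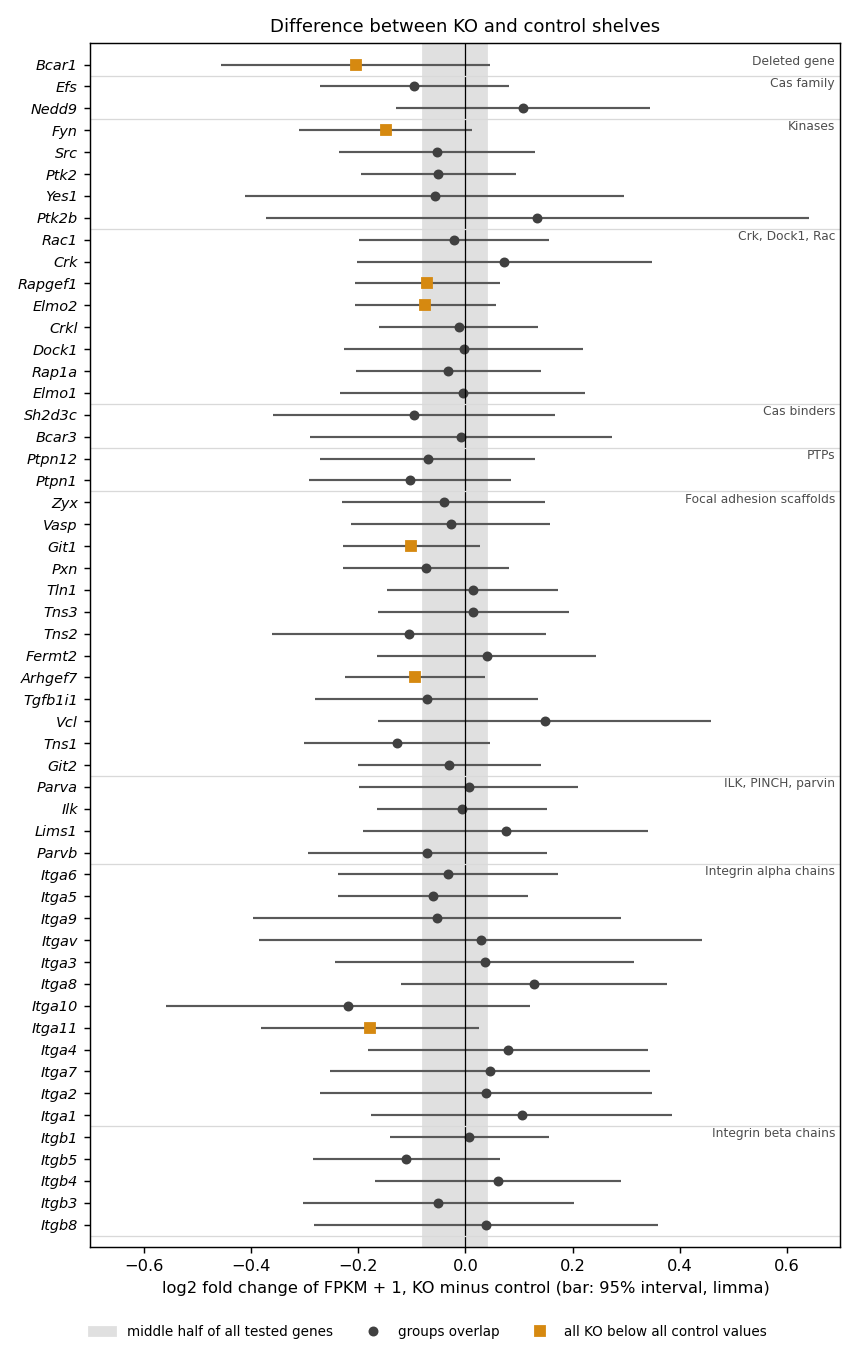
Log2 fold change of FPKM + 1, KO minus control, for Bcar1 and the 53 tested genes, with the 95% interval from limma (bars); the grey band spans the interquartile range of all tested genes. All intervals cross 0, and squares mark genes whose KO values all lay below their control values.

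The deleted gene was low in both groups. Bcar1 (ENSMUSG00000031955), which encodes p130Cas, stood at 1.69, 1.69 and 1.31 FPKM in KO shelves, against 1.80, 1.97 and 2.09 FPKM in control shelves. Each KO value was lower than each control value, the means differed by -19.8%, and the log2 fold change of -0.21 ± 0.11 (SE) did not pass (limma, adjusted p = 1.00). Reads from exons that Cre leaves in place may count towards the KO values, which may not follow the intact transcript. The comparison therefore checks the labels only weakly. In KO shelves, the level of Bcar1, its share of the family and its place below Efs and Nedd9 all rest on these values. This limit does not concern the control libraries, whose label has no Cre. The mean of Bcar1 over all 6 libraries, 1.76 FPKM, lay at the 10.5th percentile of all tested genes, while Nedd9 lay at the 66.3rd and Efs at the 89.6th. Of the FPKM summed over the 4 Cas genes, Bcar1 held 3.11%, 2.70% and 2.25% in KO shelves, and 2.97%, 3.32% and 3.38% in control shelves.

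Efs was the main Cas family transcript of the shelf by this measure. Efs (ENSMUSG00000022203; chromosome 14, 54916535 to 54926126, minus strand, GRCm38) encodes a Cas relative that binds Src family kinases. It stood at 38.5, 44.6 and 39.0 FPKM in KO shelves, against 42.2, 42.2 and 46.1 FPKM in control shelves. The groups overlapped, since KO replicate 2 lay above the lower 2 control libraries. The log2 fold change was -0.10 ± 0.08 (SE; limma, adjusted p = 1.00), with a 95% interval from -0.27 to 0.08. An increase of Efs by more than 5.82% in FPKM + 1 lies outside that interval.

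Nedd9 (ENSMUSG00000021365; chromosome 13, 41309581 to 41487362, minus strand) encodes a Cas relative known from cell migration and cell division. It stood at 14.3, 16.4 and 18.0 FPKM in KO shelves, against 16.5, 14.7 and 13.6 FPKM in control shelves. KO replicate 3 was the highest library and control replicate 3 the lowest, and the others were interleaved. The log2 fold change was 0.11 ± 0.10 (SE; limma, adjusted p = 1.00), with a 95% interval from -0.13 to 0.34, so increases of up to 26.9% in FPKM + 1 lie within it. Without KO replicate 1 the log2 fold change was 0.19, and without KO replicate 3 it was 0.03.

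Cass4 (ENSMUSG00000074570), the fourth family member, was listed at 0 in all 3 KO libraries and in control replicates 1 and 3. It was at 0.210 FPKM in control replicate 2, where the smallest value above 0 of any gene was 0.103 FPKM. Summed over Nedd9, Efs and Cass4, the paralogues stood at 52.8, 61.0 and 57.0 FPKM in KO shelves, against 58.7, 57.2 and 59.7 FPKM in control shelves. The KO mean was 56.9 ± 4.09 FPKM and the control mean 58.5 ± 1.27 FPKM (SD, n = 3 each), so the difference of -1.61 FPKM was smaller than the spread between KO libraries. Without KO replicate 1 it was 0.457 FPKM. A higher summed level of the paralogues in KO shelves was not detected, and the order of the family, Efs above Nedd9 above Bcar1 above Cass4, was the same in every library.

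**Figure D3:**
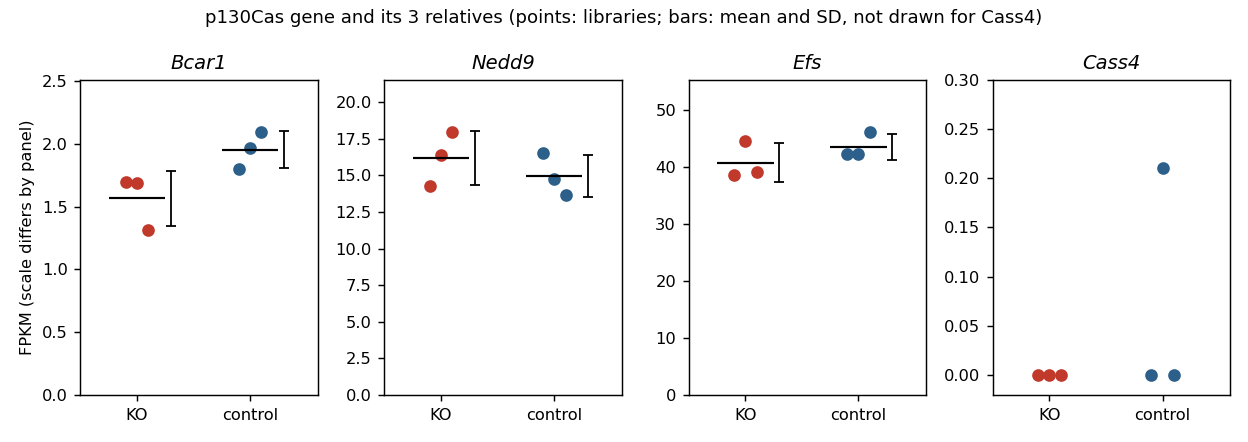
FPKM of Bcar1, Nedd9, Efs and Cass4 in KO (red, left) and control (blue, right) libraries, each panel on its own linear scale, with the mean and SD beside the points except for Cass4. Bcar1 is the panel in which the groups do not overlap, at 1.31 to 1.69 FPKM in KO and 1.80 to 2.09 FPKM in control libraries.

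The promoters of the Cas genes are shown because the family runs from a well expressed gene to one listed at 0 in most libraries. Each is the window from 250 bases before to 50 after a transcription start in RefSeq (GRCm38.p6), written 5′ to 3′ on the gene's strand with CG dinucleotides in capitals. For Bcar1, which has 2 starts in the table, the window nearest the annotated gene start is given, and for Nedd9 the annotated gene begins upstream of the RefSeq start. The windows lie at chr14:54926739-54927038 (Efs, minus strand), chr13:41358952-41359251 (Nedd9, minus strand), chr8:111743800-111744099 (Bcar1, minus strand) and chr2:172393394-172393693 (Cass4, plus strand).
Efs: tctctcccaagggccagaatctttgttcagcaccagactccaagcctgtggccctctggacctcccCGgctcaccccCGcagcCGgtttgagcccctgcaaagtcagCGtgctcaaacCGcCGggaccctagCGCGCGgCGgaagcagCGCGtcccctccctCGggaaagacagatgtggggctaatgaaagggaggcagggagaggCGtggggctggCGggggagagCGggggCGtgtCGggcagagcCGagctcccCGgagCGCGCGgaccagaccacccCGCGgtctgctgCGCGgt
Nedd9: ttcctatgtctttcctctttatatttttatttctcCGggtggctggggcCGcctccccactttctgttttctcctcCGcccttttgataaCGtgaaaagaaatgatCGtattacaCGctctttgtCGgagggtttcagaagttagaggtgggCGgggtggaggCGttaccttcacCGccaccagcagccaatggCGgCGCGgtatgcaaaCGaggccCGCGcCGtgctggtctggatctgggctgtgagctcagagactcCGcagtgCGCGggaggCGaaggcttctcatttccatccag
Bcar1: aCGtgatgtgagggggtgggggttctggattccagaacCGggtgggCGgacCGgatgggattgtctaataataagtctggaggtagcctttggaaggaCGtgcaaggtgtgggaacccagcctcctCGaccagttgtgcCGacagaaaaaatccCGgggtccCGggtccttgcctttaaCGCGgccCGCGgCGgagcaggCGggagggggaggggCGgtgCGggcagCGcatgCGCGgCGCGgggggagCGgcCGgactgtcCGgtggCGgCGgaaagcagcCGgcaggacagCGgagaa
Cass4: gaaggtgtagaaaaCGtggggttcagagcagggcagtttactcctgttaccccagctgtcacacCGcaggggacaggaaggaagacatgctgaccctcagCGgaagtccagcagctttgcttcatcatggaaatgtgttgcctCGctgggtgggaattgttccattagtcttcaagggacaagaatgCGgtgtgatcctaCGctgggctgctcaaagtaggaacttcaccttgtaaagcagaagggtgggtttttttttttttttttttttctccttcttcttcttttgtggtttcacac

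The window held 27 CG dinucleotides for Efs, 21 for Nedd9, 29 for Bcar1 and 6 for Cass4. Cass4, the gene listed at 0 in nearly all libraries, had the CG-poor window, but Bcar1 had the most CG and a low level, so the count did not order the family. Of the 56 genes, 43 matched the promoter table. Taking the start with the most CG for each gene, the median was 27 CG over the 28 genes of at least 10 FPKM and 13 CG over the 15 genes below that, beside 7 CG over all 32851 promoters of genes of every kind. Windows with 10 or fewer CG made up 58.6% of all promoters, and belonged to 2 of the 28 and to 3 of the 15 genes. The background counts every promoter and not the start with the most CG per gene, so these shares and medians are not like for like. These counts describe the letters in the window and say nothing of which factors bind there.

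The kinases that phosphorylate Cas proteins were led by Fyn and Src. Averaged over the 6 libraries, Fyn stood at 32.5 ± 2.43 FPKM (SD, n = 6), Src at 28.1 ± 1.90 FPKM, Ptk2, which encodes FAK, at 21.9 ± 0.865 FPKM, Yes1 at 6.87 ± 1.07 FPKM and Ptk2b, which encodes the FAK relative Pyk2, at 1.67 ± 0.646 FPKM. The ranges of Fyn and Src over libraries overlapped, while each later neighbour in this order was separate from the one before. Ptk2 stood at 21.0, 20.7 and 22.7 FPKM in KO shelves, against 22.6, 21.7 and 22.5 FPKM in control shelves, with a 95% interval of the log2 fold change from -0.20 to 0.09 (limma).

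Fyn (ENSMUSG00000019843; chromosome 10, 39368855 to 39565381, plus strand), a Src family kinase, stood at 30.1, 28.8 and 33.5 FPKM in KO shelves, against 34.7, 33.9 and 34.1 FPKM in control shelves. The groups did not overlap, and KO replicate 3 was closest to the controls. The log2 fold change was -0.15 ± 0.07 (SE; limma, adjusted p = 1.00).

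Ptk2b stood at 1.13, 2.93 and 1.46 FPKM in KO shelves, against 1.69, 1.31 and 1.5004 FPKM in control shelves. KO replicate 2 stood apart from the other 5 libraries. The log2 fold change was 0.13 ± 0.22 (SE; limma, adjusted p = 1.00), and it was -0.13 without KO replicate 2. Pyk2 is well known from leukocytes. Summed leukocyte markers (13 genes) were at 119, 145 and 106 FPKM in KO shelves, against 74.4, 80.7 and 92.6 FPKM in control shelves. KO replicate 2 was the highest there too, but the match was not complete. Ptk2b was lowest in KO replicate 1, whose marker sum was above that of every control library. None of the 13 markers was at 0 throughout. Of the 12 that were tested, 10 were higher in each KO library than in any control library, beside 3.27% of all tested genes. The part of leukocyte content in the Ptk2b value was not tested.

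Yes1 was at 7.18, 5.04 and 8.06 FPKM in KO shelves, against 7.64, 6.35 and 6.94 FPKM in control shelves. Both the lowest and the highest library were KO.

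Downstream of phosphorylated Cas, the adaptors and the Rac branch were all well expressed except Elmo1. Rac1, the GTPase, averaged 71.7 ± 4.34 FPKM over the 6 libraries (SD), Crk 35.4 ± 4.17 FPKM, Rapgef1 32.7 ± 1.32 FPKM, Elmo2 27.3 ± 1.01 FPKM, Crkl 19.3 ± 0.701 FPKM, Dock1 18.1 ± 1.54 FPKM, Rap1a 14.9 ± 0.809 FPKM and Elmo1 4.66 ± 0.395 FPKM. Neighbours overlapped for Crk and Rapgef1 and for Crkl and Dock1, and were separate otherwise. Rac1 and Rap1a have close relatives, so the split of reads between copies is uncertain. Rac1 stood at 69.7, 65.5 and 78.4 FPKM in KO shelves, against 73.0, 73.3 and 70.1 FPKM in control shelves, so the KO libraries lay on both sides of the controls.

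Dock1, the exchange factor that loads Rac with GTP, stood at 18.7, 15.7 and 19.8 FPKM in KO shelves, against 19.4, 16.9 and 17.9 FPKM in control shelves. Crk, the adaptor that carries it to Cas, stood at 37.9, 30.3 and 40.8 FPKM in KO shelves, against 37.7, 34.3 and 31.1 FPKM in control shelves. For both genes KO replicate 2 was the lowest library and KO replicate 3 the highest. Their log2 fold changes were -0.00 ± 0.10 for Dock1 and 0.07 ± 0.12 for Crk (SE; limma).

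Elmo2 and Rapgef1 lay lower in each KO library than in any control library by small margins, beside 5.79% of all tested genes. For neither did this hold after median-of-ratios scaling or after rescaling to the same FPKM sum. Elmo2, a partner of Dock1, stood at 25.6, 27.1 and 27.0 FPKM in KO shelves, against 27.7, 28.0 and 28.4 FPKM in control shelves. Rapgef1, an exchange factor that Crk brings to adhesions to activate Rap1a, stood at 32.1, 30.8 and 32.57 FPKM in KO shelves, against 32.58, 34.9 and 33.1 FPKM in control shelves. The log2 fold changes were -0.07 ± 0.06 (SE) for each, and neither passed (limma, adjusted p = 1.00).

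The exchange factor relatives that bind the C-terminal end of Cas proteins were low. Sh2d3c averaged 7.58 ± 0.904 FPKM and Bcar3 2.06 ± 0.277 FPKM over the 6 libraries (SD). Sh2d3c is known from blood and endothelial cells, and its KO values of 7.50, 6.42 and 7.93 FPKM overlapped control values of 7.14, 7.36 and 9.12 FPKM. Summed endothelial markers (10 genes) were at 155, 128 and 154 FPKM in KO shelves, against 160, 166 and 182 FPKM in control shelves. In both cases KO replicate 2 was the lowest library and control replicate 3 the highest. The match was not complete. KO replicates 1 and 3 lay above control replicates 1 and 2 for Sh2d3c but below them for the marker sum. On FPKM as deposited, 5 of the 10 markers were lower in each KO library than in any control library, beside 5.79% of all tested genes. The part of endothelial content in Sh2d3c was not tested. Of the phosphatases, Ptpn12, or PTP-PEST, which removes phosphate from p130Cas, averaged 14.4 ± 1.06 FPKM, and Ptpn1, or PTP1B, 12.7 ± 0.926 FPKM, and the groups overlapped for both.

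The scaffolds of focal adhesions lay between 17.6 and 53.8 FPKM in mean level, for 13 genes. Zyx, which encodes zyxin, led at 53.8 ± 3.74 FPKM over the 6 libraries (SD), followed by Vasp, an actin elongation factor that zyxin binds, at 39.4 ± 2.59 FPKM, Git1 at 35.4 ± 1.60 FPKM and Pxn, or paxillin, at 34.4 ± 1.86 FPKM. Below Zyx, neighbours in the order overlapped in range, apart from a gap between Tgfb1i1, at 26.6 ± 2.26 FPKM, and Vcl, at 19.2 ± 2.84 FPKM. Tln1, which encodes talin, the protein that switches integrins on, stood at 33.5, 29.9 and 32.7 FPKM in KO shelves, against 32.3, 30.0 and 32.8 FPKM in control shelves. Fermt2, or kindlin-2, its partner in this, stood at 29.2, 26.2 and 33.3 FPKM in KO shelves, against 28.5, 28.0 and 29.2 FPKM in control shelves. The groups overlapped for both.

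Git1 and Arhgef7 encode partners in 1 complex, which recruits Rac regulators to paxillin. Both were lower in each KO library than in any control library, where 5.79% of all tested genes lay lower in this way. After rescaling each library to the same FPKM sum, this held for Git1 but not for Arhgef7. Git1 (ENSMUSG00000011877; chromosome 11, 77493562 to 77507786, plus strand) stood at 34.0, 34.1 and 34.2 FPKM in KO shelves, against 35.6, 38.0 and 36.5 FPKM in control shelves. Arhgef7, or beta-PIX (ENSMUSG00000031511; chromosome 8, 11727721 to 11835219, plus strand), stood at 26.6, 25.2 and 26.6 FPKM in KO shelves, against 27.6, 27.9 and 28.4 FPKM in control shelves. Their log2 fold changes were -0.10 ± 0.06 (SE) and -0.09 ± 0.06 (SE), and neither passed (limma, adjusted p = 1.00). Git2, the relative of Git1, overlapped between groups, at 16.9, 16.6 and 18.6 FPKM in KO and 18.0, 16.6 and 18.6 FPKM in control shelves.

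Vcl, which encodes vinculin, the protein that reinforces adhesions under tension, had the highest log2 fold change of the 53 genes, at 0.15 ± 0.13 (SE; limma, adjusted p = 1.00). It stood at 21.1, 16.7 and 23.1 FPKM in KO shelves, against 20.9, 17.2 and 16.3 FPKM in control shelves. KO replicates 1 and 3 lay with control replicate 1, and KO replicate 2 with the other controls. The log2 fold change was 0.28 without KO replicate 2 and 0.05 without KO replicate 3.

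The tensins, which bind integrin tails and actin, had log2 fold changes of -0.13 ± 0.07 for Tns1, -0.10 ± 0.11 for Tns2 and 0.01 ± 0.08 for Tns3 (SE; limma). Pxn and its relative Tgfb1i1, or Hic-5, both lay at -0.07. None of these passed, and the groups overlapped for each.

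Of the ILK-PINCH-parvin complex, which links beta chains to actin, Parva averaged 53.8 ± 4.07 FPKM, Ilk 40.5 ± 1.98 FPKM and Lims1, or PINCH1, 23.4 ± 2.72 FPKM over the 6 libraries (SD). The alternative members were low: Parvb averaged 7.33 ± 0.644 FPKM, and Lims2, or PINCH2, 0.804 ± 0.197 FPKM. All neighbours in this order were separate. Ilk stood at 39.9, 38.3 and 43.2 FPKM in KO shelves, against 38.5, 41.7 and 41.7 FPKM in control shelves, and its log2 fold change was -0.01 ± 0.07 (SE; limma, adjusted p = 1.00).

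Beta chain transcripts came mostly from Itgb1 and Itgb5. Itgb1 (ENSMUSG00000025809; chromosome 8, 128685654 to 128733200, plus strand), the partner of most alpha chains, stood at 114, 111 and 122 FPKM in KO shelves, against 115, 111 and 119 FPKM in control shelves. It lay at the 97.2nd percentile of all tested genes, and its log2 fold change was 0.01 ± 0.06 (SE; limma), with a 95% interval from -0.14 to 0.16. Itgb5 (ENSMUSG00000022817; chromosome 16, 33829665 to 33949338, plus strand), which pairs with alpha v to bind vitronectin, stood at 99.2, 105 and 103 FPKM in KO shelves, against 101, 114 and 118 FPKM in control shelves. Only control replicate 1 lay among the KO libraries. Its log2 fold change was -0.11 ± 0.07 (SE; limma, adjusted p = 1.00).

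Of the summed beta chains, Itgb1 held 50.1%, 48.1% and 51.3% in KO shelves, against 50.1%, 46.6% and 47.5% in control shelves. Itgb4, the chain of hemidesmosomes in epithelium, averaged 10.1 ± 0.944 FPKM over the 6 libraries (SD), Itgb3 1.62 ± 0.169 FPKM, Itgb8 1.19 ± 0.237 FPKM and Itgb6 0.695 ± 0.115 FPKM. Itgb8, which with alpha v activates latent TGF-beta, stood at 1.29, 1.02 and 1.34 FPKM in KO shelves, against 1.55, 0.981 and 0.977 FPKM in control shelves. Itgb6, the epithelial chain with the same role, stood at 0.577, 0.899 and 0.694 FPKM in KO shelves, against 0.615, 0.649 and 0.739 FPKM in control shelves. The groups overlapped for both, and Itgb6 was under the filter.

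Alpha chains were spread more evenly. Itga6, a laminin receptor chain, averaged 31.6 ± 2.56 FPKM over the 6 libraries (SD), and Itga5, the fibronectin receptor chain, 27.1 ± 1.68 FPKM. Together they held 51.9%, 52.7% and 49.7% of the alpha sum in KO shelves, against 51.9%, 52.3% and 52.2% in control shelves. Next came Itga9, a tenascin receptor chain, at 11.4 ± 1.67 FPKM, Itgav at 10.7 ± 2.04 FPKM, Itga3 at 7.71 ± 0.915 FPKM, Itga8 at 6.96 ± 0.819 FPKM and Itga10 at 6.07 ± 1.21 FPKM, each overlapping the next. Itga11 averaged 3.78 ± 0.377 FPKM, Itga4 3.18 ± 0.385 FPKM, Itga7 1.90 ± 0.276 FPKM, Itga2 1.65 ± 0.275 FPKM and Itga1 1.45 ± 0.231 FPKM.

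Summed over 12 genes, the alpha chains stood at 115, 101 and 122 FPKM in KO shelves, against 122, 112 and 110.2 FPKM in control shelves. Summed over 6 genes, the beta chains stood at 227, 231 and 237 FPKM in KO shelves, against 230.5, 237 and 249.6 FPKM in control shelves. The ratio of beta to alpha transcripts averaged 2.07 ± 0.194 in KO and 2.09 ± 0.191 in control libraries (SD, n = 3 each). Summed by ligand, the collagen-binding chains Itga1, Itga2, Itga10 and Itga11 stood at 12.2, 11.2 and 13.2 FPKM in KO shelves, against 15.7, 12.9 and 12.4 FPKM in control shelves, and the laminin-binding chains Itga3, Itga6 and Itga7 at 41.2, 40.1 and 41.7 FPKM in KO shelves, against 45.4, 41.2 and 38.0 FPKM in control shelves. The groups overlapped for all 4 of these sums.

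**Figure D4:**
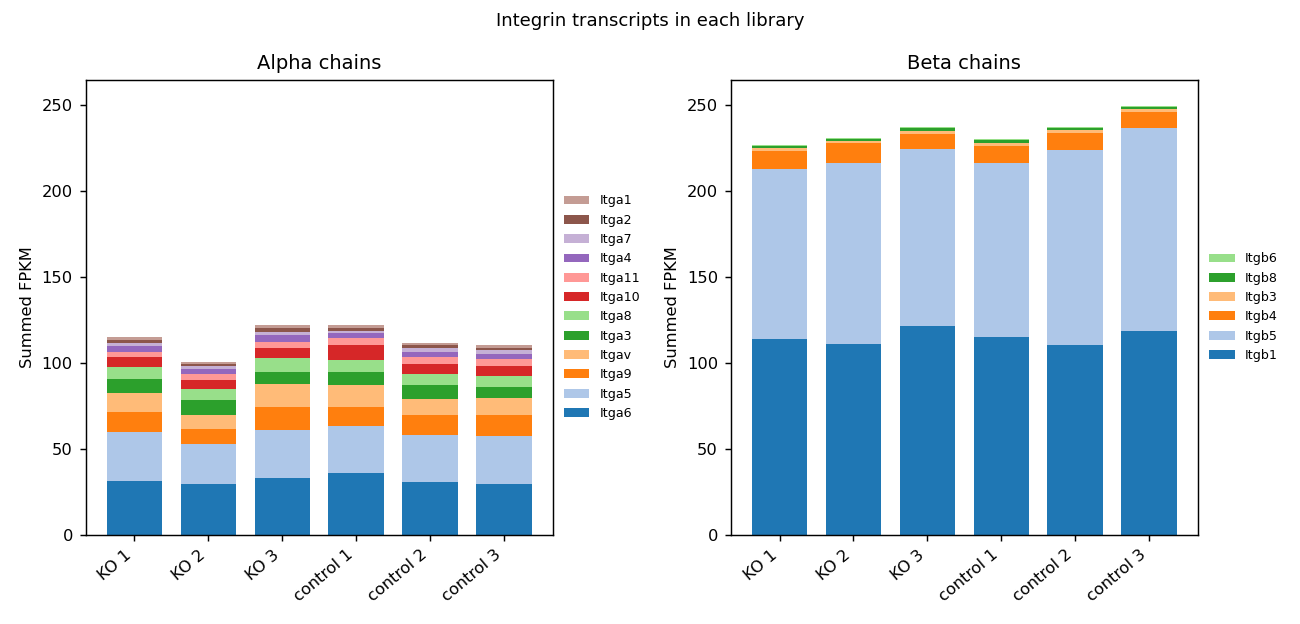
Summed FPKM of the 12 alpha chain genes (left) and the 6 beta chain genes (right) in each library, KO libraries first. Itgb1 and Itgb5 fill most of the beta bars, Itga6 and Itga5 the lower part of the alpha bars, and KO replicate 2 has the lowest alpha sum, at 101 FPKM.

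Itga11 and Itga10 had the lowest log2 fold changes of the integrins. The other collagen-binding chains did not share this: Itga1 lay at 0.11 ± 0.12 and Itga2 at 0.04 ± 0.13 (SE; limma). Itga11 (ENSMUSG00000032243; chromosome 9, 62677826 to 62783982, plus strand), a collagen receptor chain of fibroblasts, stood at 3.27, 3.81 and 3.39 FPKM in KO shelves, against 4.12, 3.91 and 4.19 FPKM in control shelves. The groups did not overlap, and the log2 fold change was -0.18 ± 0.09 (SE; limma, adjusted p = 1.00). Itga10 (ENSMUSG00000090210), a collagen receptor chain known from cartilage, stood at 5.64, 4.94 and 5.90 FPKM in KO shelves, against 8.39, 6.16 and 5.38 FPKM in control shelves. Its value was high in control replicate 1 alone, and its log2 fold change of -0.22 ± 0.15 (SE) became -0.06 without that library. The cartilage marker sum was highest in KO replicate 1, and the part of cartilage content in the Itga10 value was not tested.

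Itgav, the alpha v chain, stood at 11.1, 8.02 and 13.5 FPKM in KO shelves, against 12.4, 9.39 and 9.76 FPKM in control shelves. The KO libraries held both extremes, and its 95% interval, from -0.38 to 0.44 on the log2 scale (limma), was among the widest of the set. Itga8, the chain that binds nephronectin with beta 1, stood at 7.25, 6.36 and 8.37 FPKM in KO shelves, against 7.18, 6.17 and 6.44 FPKM in control shelves, and its log2 fold change was 0.13 ± 0.11 (SE; limma, adjusted p = 1.00). Itga5 stood at 28.1, 23.8 and 27.8 FPKM in KO shelves, against 27.3, 27.5 and 28.2 FPKM in control shelves, where KO replicate 2 alone was low.

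Integrins of epithelium were read beside epithelial markers. Summed epithelial markers (12 genes) were at 509, 698 and 383 FPKM in KO shelves, against 508, 574 and 459.5 FPKM in control shelves. Itgb4 stood at 10.6, 11.6 and 8.96 FPKM in KO shelves, against 10.3, 9.996 and 9.31 FPKM in control shelves. Itga3, a laminin receptor chain, stood at 7.84, 8.92 and 6.70 FPKM in KO shelves, against 7.89, 8.30 and 6.57 FPKM in control shelves. Among the KO libraries, replicate 2 was highest and replicate 3 lowest for both genes and for the marker sum. The match was not complete. Itga6, the laminin receptor chain with the highest mean of the alpha chains, stood at 31.5, 29.3 and 32.9 FPKM in KO shelves. Its control values were 36.1, 30.8 and 29.31 FPKM. Among the KO libraries Itga6 thus ran the other way, lowest in replicate 2 and highest in replicate 3. Itgb6 was lowest in KO replicate 1. Among the control libraries the marker sum and Itga3 were highest in replicate 2 but Itgb4 in replicate 1. No marker of the 12 was free of overlap between groups, where 9.06% of all tested genes were. The part of epithelial content in these values was not tested. Log2 fold changes were 0.06 ± 0.10 for Itgb4, 0.04 ± 0.12 for Itga3 and -0.03 ± 0.09 for Itga6 (SE; limma).

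In all, 6 of the 53 tested genes were lower in each KO library than in any control library: Fyn, Elmo2, Rapgef1, Git1, Arhgef7 and Itga11. That is 11.3%, where 5.79% of all tested genes lay lower in this way. None of the 53 had KO values above all control values, where 3.27% of all tested genes did. In either direction the share was 11.3%, beside 9.06% of all tested genes. The margins were small, and the count followed the scaling: after median-of-ratios scaling 4 of the 53 were lower in this way (Fyn, Git1, Arhgef7 and Itga11), beside 3.99% of all tested genes. After rescaling each library to the same FPKM sum 2 of the 53 were (Git1 and Itga11), beside 3.40% of all tested genes, a share near that background. These counts under other scalings were added after the values had been seen.

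KO replicate 2 was the lowest of the 6 libraries for 30 of the 53 genes, or 56.6%, beside 28.4% of all tested genes. KO replicate 3 was the highest for 19 of the 53, or 35.8%, beside 21.7% of all tested genes. The median of the 53 genes, on the log2 scale and relative to the control mean, was -0.01, -0.10 and 0.03 in KO shelves, against 0.02, -0.01 and -0.00 in control shelves. Without KO replicate 2 the median log2 fold change of the set was 0.01. The genes of the set have long transcripts, with a median longest annotated transcript of 4678 bases, beside 3159 bases over all tested genes. Across the 53 genes, the deviation of KO replicate 2 from the mean of the other libraries had a Spearman correlation with this length of -0.32, and across the 14506 tested genes with a length of -0.39. Genes within a library are not independent, and the part of transcript length in these values was not tested.

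**Figure D5:**
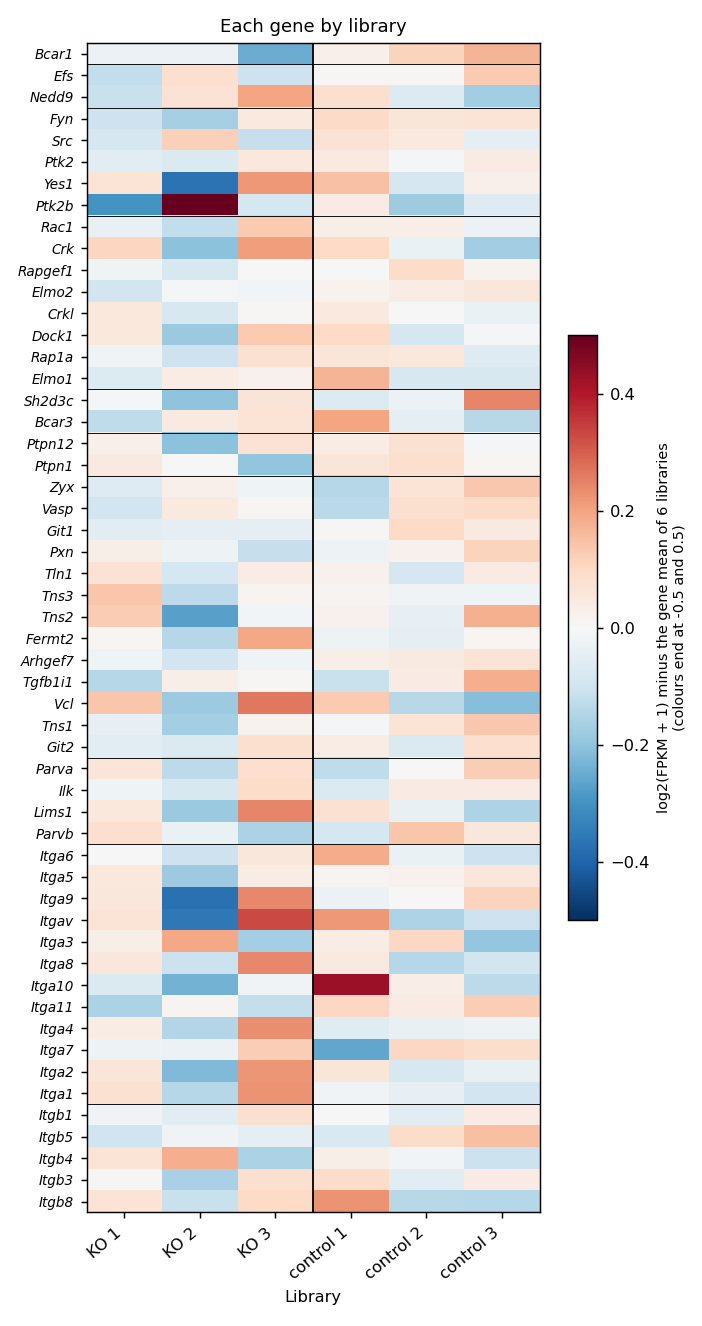
Log2(FPKM + 1) of Bcar1 and each tested gene minus its mean over the 6 libraries (blue low, red high), with KO libraries left of the line and control libraries right. KO replicate 2 is the lowest library for 30 of the 53 genes, and Ptk2b stands out as its highest value.

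Further genes of focal adhesions, listed by role and not by how they moved, did not pass either. Of 60 such genes, 57 were tested and 0 were called (limma, adjusted p under 0.05), beside 0.333% of all tested genes. At an unadjusted p under 0.05 there was 1 of the 57, beside 4.01% of all tested genes. The median log2 fold change of the 57 was -0.01. The lowest p was that of Parvg, the parvin of blood cells, at 1.10, 1.67 and 1.21 FPKM in KO shelves, against 0.467, 0.724 and 0.953 FPKM in control shelves. Its log2 fold change was 0.44 ± 0.15 (SE; limma, adjusted p = 1.00). The next was Cd151, a tetraspanin that binds laminin receptors, at 25.9, 29.1 and 24.1 FPKM in KO and 28.2, 30.8 and 30.3 FPKM in control shelves.

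Of 37 matrix ligands of integrins, 36 were tested and 0 were called (limma), beside 0.333% of all tested genes. At an unadjusted p under 0.05 there was 1 of the 36, beside 4.01% of all tested genes. The median log2 fold change of the 36 was 0.01. Fn1, or fibronectin, stood at 153, 113 and 170.3 FPKM in KO shelves, against 143, 126 and 124 FPKM in control shelves. The lowest p was that of Tgfb1, whose latent form is an integrin ligand, at 14.6, 20.5 and 17.5 FPKM in KO shelves, against 22.7, 20.68 and 22.1 FPKM in control shelves. Its log2 fold change was -0.31 ± 0.11 (SE; limma, adjusted p = 1.00). Lama3, a laminin chain of epithelial basement membrane, was next, at 3.24, 5.25 and 3.38 FPKM in KO shelves, against 5.03, 4.48 and 4.72 FPKM in control shelves.

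The 9 remaining integrin genes, most of them chains of blood cells, were low or listed at 0, and 1 of them, Itga2b, passed the filter. Itgal stood at 0.761, 0.853 and 0.622 FPKM in KO shelves, against 0.392, 0.334 and 0.268 FPKM in control shelves. Itgb2, the beta chain that Itgal and Itgam share, stood at 0.841, 1.11 and 0.702 FPKM in KO shelves, against 0.547, 0.518 and 0.616 FPKM in control shelves. For these genes and Itgam each KO value was higher than each control value, as it was for the summed leukocyte markers. Among all tested genes, 3.27% lay higher in this way, but Itgal, Itgb2 and Itgam were under the filter of 1 FPKM. The leukocyte integrins were named after their values had been seen. The other leukocyte chains did not share this separation of groups. Itgb7 stood at 0.628, 1.07 and 0.529 FPKM in KO shelves, against 0.809, 0.914 and 0.621 FPKM in control shelves, and Itgae at 0.222, 0.141 and 0.223 FPKM in KO shelves, against 0.232, 0.159 and 0.205 FPKM in control shelves. The groups overlapped for both, and Itgad and Itgax were listed at 0 in all 6 libraries. Tested without the filter, the log2 fold change was 0.39 ± 0.09 for Itgal (SE; limma, adjusted p = 0.409), 0.36 ± 0.13 for Itgam and 0.27 ± 0.11 for Itgb2 (SE; limma, adjusted p = 0.965 for both). The part of leukocyte content in these values was not tested.

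Some values carry a limit of annotation. An exon overlapped another gene above 0 for 14 of the 56 genes, among them Rac1 with Daglb, Tln1 with Creb3, Vcl with Ap3m1 and Itga10 with Gm42957. The strand setting of the counting is not given in the sources used here, so the reads of such pairs cannot be told apart.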

How the data were processed

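Total RNA of E14.5 palatal shelves was sequenced in 3 KO and 3 control libraries. The deposited values are FPKM, scaled by the authors to gene length and library size, in 1 table, and the unit comes from its name. The submitters' processing notes name mm10 as the build, and DESeq2 1.5.2. Which aligner, counter and annotation release were used is not given in the sources used here. Columns were matched to samples by library name and samples to groups by title. Of 55631 gene IDs, 50876 matched GENCODE vM21 (GRCm38).

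The comparison used limma (3.58.1, R 4.3.3; lmFit, eBayes with a trend, genotype only, two-sided) on log2(FPKM + 1) for genes that averaged 1 FPKM or more, with Benjamini-Hochberg adjustment over all of them and a threshold of 0.05. Fold changes on this scale understate those of low genes. Depth is unknown, so no counting interval is given, and no count test was run. The planned exact permutation test of the summed FPKM of Nedd9, Efs and Cass4 gave p = 0.6, with or without Bcar1. With 3 libraries against 3, its smallest possible p is 0.1. For other sums no test result is given. The fit was tested on simulated data with known answers. Promoter sequences came from RefSeq (GRCm38.p6). All 56 genes, Bcar1, and the 2 genes of lowest p in each further list were named, and Fn1 and the leukocyte integrins were added after their values had been seen. The genes and lists were chosen with earlier results of these data known. Alternatives were other pseudocounts, filters and scalings, eBayes settings, library weights, a replicate block and each library left out.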

Additional observations from a re-analysis of the deposited data

How the results depend on the processing

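No gene of the set was called under any of the 18 alternatives, where their lowest adjusted p was 0.312 (limma with library weights), and Bcar1 kept its direction in all that could test it. A filter at a mean of 5 FPKM removed Bcar1. Over all genes, 48 were higher and 1 lower in KO. With the filter at 5 FPKM these were 24 and 0, with no filter or a filter at 0.1 FPKM 2 were lower, and leaving out single libraries gave 1 to 2 lower genes, with 2 without KO replicate 1 or KO replicate 2. Higher genes numbered 68 with TPM, 67 with no filter, 66 with library weights, 65 with the filter at 0.1 FPKM and 32 to 48 with single libraries left out, fewest without control replicate 3. The cause was not tested. The summed Cas family FPKM differed by -1.61 FPKM, and by -3.64 to 0.457 FPKM with libraries left out. The 6 genes with KO values below all control values became 2 after rescaling to TPM, where the share over all tested genes was 3.40% in place of 5.79%.

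A sign change was counted as a reversal only where a value exceeded its own SE. By this rule Dock1 turned to 0.082 with library weights, and with libraries left out its log2 fold change ran from -0.068 to 0.089, that of Yes1 from -0.18 to 0.11 and that of Itga9 from -0.19 to 0.12, each highest without KO replicate 2. Of 944 values of single genes under alternatives, 83 changed sign, 79 of them with both values within their SE. Same-numbered libraries deviated from their group means together with correlations of 0.02, 0.305 and -0.24. The highest correlation was that of KO replicate 3 with control replicate 1, at 0.314. With 3 libraries per group, these values cannot show whether replicate numbers pair the libraries. With a replicate block 41 genes were higher and 1 lower, and 0 of the set. Read numbers are unknown, so the limit that depth sets could not be worked out.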
